A study of Homo sapiens with 2 samples.

Results

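The 10 genes described here mark the epithelium of the distal lung and airway. They are NKX2-1, the surfactant genes SFTPA1, SFTPA2, SFTPB, SFTPC and SFTPD, NAPSA, SCGB1A1, AQP5 and AGER. They were taken by name from the RefSeq table for GRCh38, in which all 10 were found among 19866 protein-coding genes on placed chromosomes. Histone H3 lactylated at lysine 18 (H3K18la) was mapped by ChIP-seq in the H1299 line of non-small cell lung cancer (NSCLC), which was established from a lymph node metastasis and was grown without a treatment named in the labels. The series holds 2 libraries, 1 immunoprecipitated with an antibody against H3K18la and 1 input, and the single peak list analysed here belongs to the immunoprecipitated library. The design text names an IgG group where the sample labels name input, so the control behind the peak calls could not be settled. Peak names in the list begin with NC, which no label explains, and its place with the H3K18la library rests on the labels. With 1 library a group there were no replicates, so no test or p-value is given, and the binomial intervals below cover counting error over genes only.

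Histone lactylation is derived from lactate and is found, like histone acetylation, at active promoters and enhancers. In the lung, NKX2-1 (also called TTF-1) is the homeodomain factor that specifies the epithelium in the embryo and keeps surfactant genes on in the adult. Alveolar type 2 cells make surfactant, alveolar type 1 cells form the thin surface for gas exchange, and club cells secrete protective proteins in the airway. Lung adenocarcinomas often keep NKX2-1 and napsin A, which pathologists use as markers.

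A peak of the list lay within 1000 bp of an end of 4 of the 10 genes, NKX2-1, SFTPC, NAPSA and AQP5 (40.0%, exact 95% interval 12.2 to 73.8), beside 59.1% of all protein-coding genes, a share inside that interval. The genes without one were SFTPA1, SFTPA2, SFTPB, SFTPD, SCGB1A1 and AGER. A peak overlapped the body of 3 members (30%, 6.67 to 65.2), against 65.0% of all protein-coding genes, a share just inside that interval. This count takes no account of gene length, which ran from 3285 bp (AGER) to 44644 bp (SFTPD) in the members. Within 50000 bp of the gene, 7 members had a peak (70.0%, 34.8 to 93.3), against 83.1% of all protein-coding genes, and the 3 without were SFTPA1, SFTPA2 and SFTPD. These 3 lay in 1 stretch without a peak, so they are not independent, and the intervals of these counts take no account of this. Sequencing depth is not known for these libraries, and a missing peak says only that none is in this list.

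**Figure D1:**
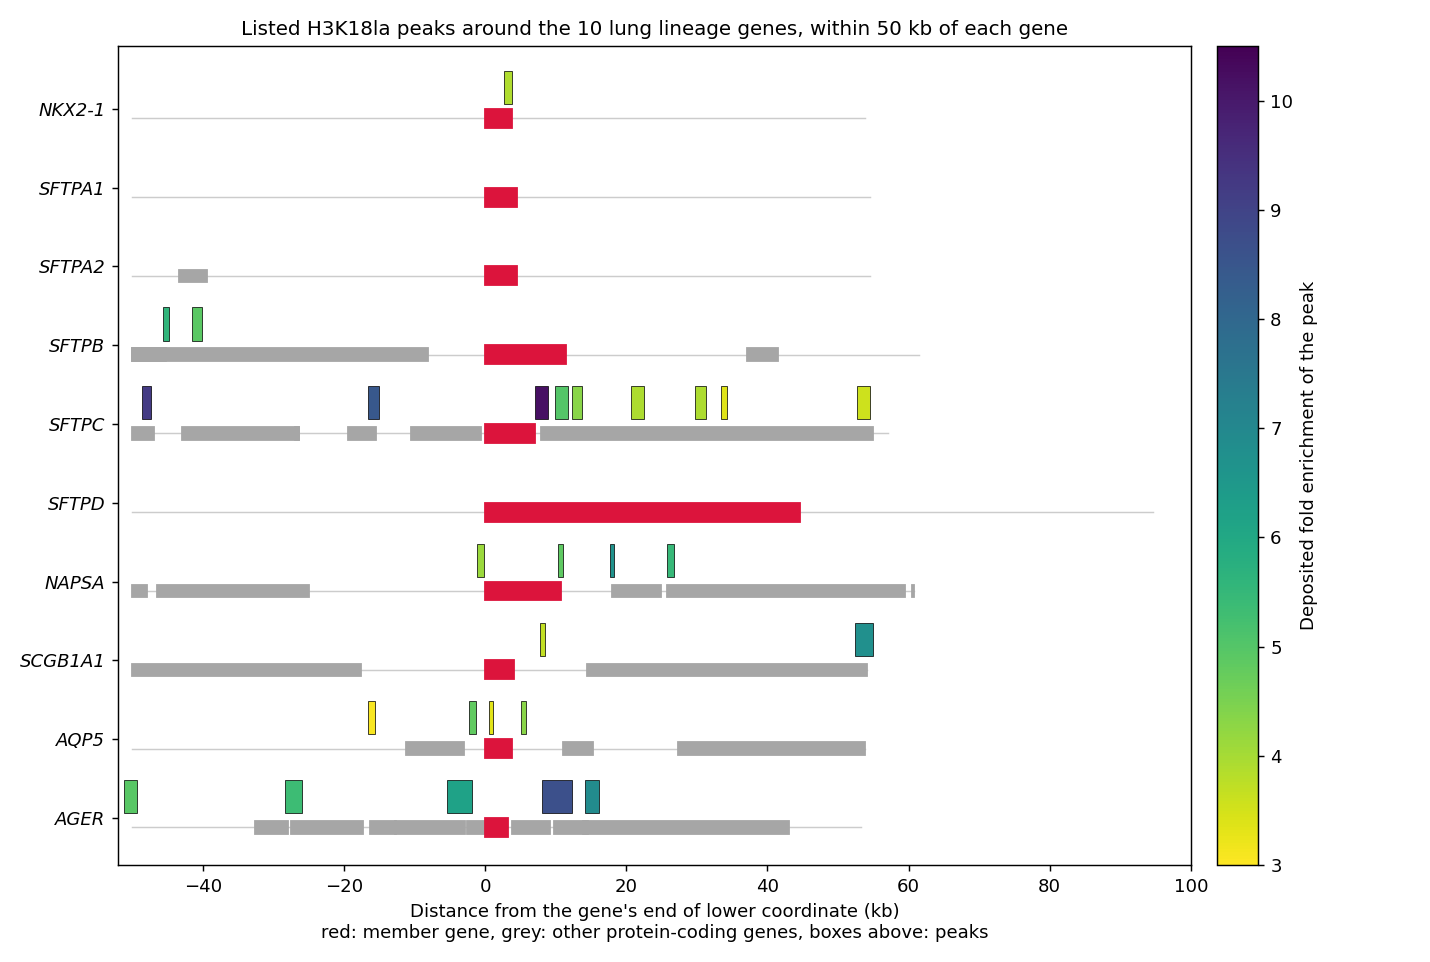
Peaks (boxes, coloured by deposited fold enrichment) within 50 kb of each of the 10 genes, by distance in kb from the gene's end of lower coordinate, with the gene itself in red and other protein-coding genes in grey. Peaks lay at an end of NKX2-1, SFTPC, NAPSA and AQP5, and the rows of SFTPA1, SFTPA2 and SFTPD hold none.

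The sequence around the transcription start was available for 8 members, with 12 starts between them, and is shown for those whose start lay near a peak and for a set that had none. These windows run from 250 bases before the start to 50 from it onwards (RefSeq, GRCh38.p14, 5′ to 3′ on the gene's own strand). Capitals mark CpG dinucleotides, whose number is compared below. The 4 starts with a peak within 1000 bp were these:
NKX2-1, start at the outer end of the gene (chr14:36520183-36520482, minus strand): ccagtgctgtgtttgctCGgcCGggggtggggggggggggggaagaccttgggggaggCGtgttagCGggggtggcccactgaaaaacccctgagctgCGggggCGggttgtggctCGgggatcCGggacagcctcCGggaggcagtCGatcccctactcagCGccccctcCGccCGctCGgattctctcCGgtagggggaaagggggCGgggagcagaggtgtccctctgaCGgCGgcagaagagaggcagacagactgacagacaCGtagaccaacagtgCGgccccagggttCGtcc
NKX2-1, start inside the gene (chr14:36519507-36519806, minus strand): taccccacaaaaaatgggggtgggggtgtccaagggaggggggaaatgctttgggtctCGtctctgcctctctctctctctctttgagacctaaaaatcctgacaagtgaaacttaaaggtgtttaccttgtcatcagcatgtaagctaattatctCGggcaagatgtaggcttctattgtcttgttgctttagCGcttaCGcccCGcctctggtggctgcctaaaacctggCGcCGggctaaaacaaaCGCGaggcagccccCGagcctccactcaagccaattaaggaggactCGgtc
NAPSA (chr19:50369253-50369552, minus strand): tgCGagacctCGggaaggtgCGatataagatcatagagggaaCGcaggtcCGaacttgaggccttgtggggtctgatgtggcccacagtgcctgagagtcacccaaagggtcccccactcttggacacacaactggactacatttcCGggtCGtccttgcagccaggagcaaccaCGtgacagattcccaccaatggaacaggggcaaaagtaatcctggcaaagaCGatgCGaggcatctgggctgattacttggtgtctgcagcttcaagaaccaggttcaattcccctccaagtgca
AQP5 (chr12:49961622-49961921, plus strand): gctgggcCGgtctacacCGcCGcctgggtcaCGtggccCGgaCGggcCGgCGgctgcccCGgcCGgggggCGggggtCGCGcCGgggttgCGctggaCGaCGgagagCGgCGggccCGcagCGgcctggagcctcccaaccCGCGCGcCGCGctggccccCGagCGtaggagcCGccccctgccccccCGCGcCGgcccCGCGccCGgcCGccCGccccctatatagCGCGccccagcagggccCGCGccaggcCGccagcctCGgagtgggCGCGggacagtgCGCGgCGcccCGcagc

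The shown starts without a peak in that distance held few or no capitals. SFTPA1 and SFTPA2 are printed together because they are duplicate genes for surfactant protein A:
SFTPA1 (chr10:79610689-79610988, plus strand): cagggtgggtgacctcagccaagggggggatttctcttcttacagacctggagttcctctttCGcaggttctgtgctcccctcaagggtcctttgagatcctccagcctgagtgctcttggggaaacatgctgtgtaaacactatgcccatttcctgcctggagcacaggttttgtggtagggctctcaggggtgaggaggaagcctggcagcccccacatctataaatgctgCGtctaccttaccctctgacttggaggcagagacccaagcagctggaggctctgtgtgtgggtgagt
SFTPA2, start at the outer end of the gene (chr10:79560358-79560657, minus strand): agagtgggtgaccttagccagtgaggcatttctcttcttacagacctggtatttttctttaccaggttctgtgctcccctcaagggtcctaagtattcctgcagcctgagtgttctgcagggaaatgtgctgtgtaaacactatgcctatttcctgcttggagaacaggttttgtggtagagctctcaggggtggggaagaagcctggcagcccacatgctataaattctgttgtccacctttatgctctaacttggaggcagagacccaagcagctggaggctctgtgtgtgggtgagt
SFTPB, start inside the gene (chr2:85668150-85668449, minus strand): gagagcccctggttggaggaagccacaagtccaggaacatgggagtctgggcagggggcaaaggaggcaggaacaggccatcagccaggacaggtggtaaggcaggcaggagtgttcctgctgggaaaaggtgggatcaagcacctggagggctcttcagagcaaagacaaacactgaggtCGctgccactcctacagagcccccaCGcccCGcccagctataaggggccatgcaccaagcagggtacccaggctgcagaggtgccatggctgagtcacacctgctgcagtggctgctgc
AGER (chr6:32184204-32184503, minus strand): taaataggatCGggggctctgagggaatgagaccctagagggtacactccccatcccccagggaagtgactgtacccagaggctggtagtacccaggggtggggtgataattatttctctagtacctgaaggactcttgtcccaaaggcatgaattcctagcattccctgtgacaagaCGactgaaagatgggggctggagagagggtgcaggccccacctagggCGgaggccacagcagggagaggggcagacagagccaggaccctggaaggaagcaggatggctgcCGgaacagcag

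The 4 member starts with a peak held 49 CpG (AQP5), 21 and 11 (NKX2-1) and 10 (NAPSA). The other 8 starts held at most 5. These were 0 and 2 at SFTPA2, 2 at SFTPA1, 1 and 3 at SFTPB, 1 at SFTPD, 4 at AGER and 5 at the inner start of NAPSA. With this window the ranges of the starts with and without a peak did not overlap. The nearest peak to the AQP5 start lay 550 bp away, so with a window of 500 bp the start with 49 CpG falls among those without a peak and the ranges overlap. The same order ran through the 22175 starts of protein-coding genes, which held a median of 21 CpG. A peak lay within 1000 bp of 58.9% of them all, and of 62.1% of the 15842 genes they belong to. The share was 7.63% (6.58 to 8.80) of starts with 0 to 2 CpG, 15.3% (13.9 to 16.7) with 3 to 5, 30.8% (28.9 to 32.7) with 6 to 10, 63.2% (61.7 to 64.7) with 11 to 20, 80.4% (79.3 to 81.4) with 21 to 30 and 85.5% (84.6 to 86.4) with 31 to 69. Of the 4737 starts with at most 5 CpG, 11.6% had a peak, and of the 8 member starts with as few, 0 had one. With only 8 starts, 0 cannot be told apart from that share. The limit of 5 was set after the members' values were seen. Several starts belong to 1 gene and are not independent. Whether CpG content plays a part in the presence of a peak was not tested.

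**Figure D2:**
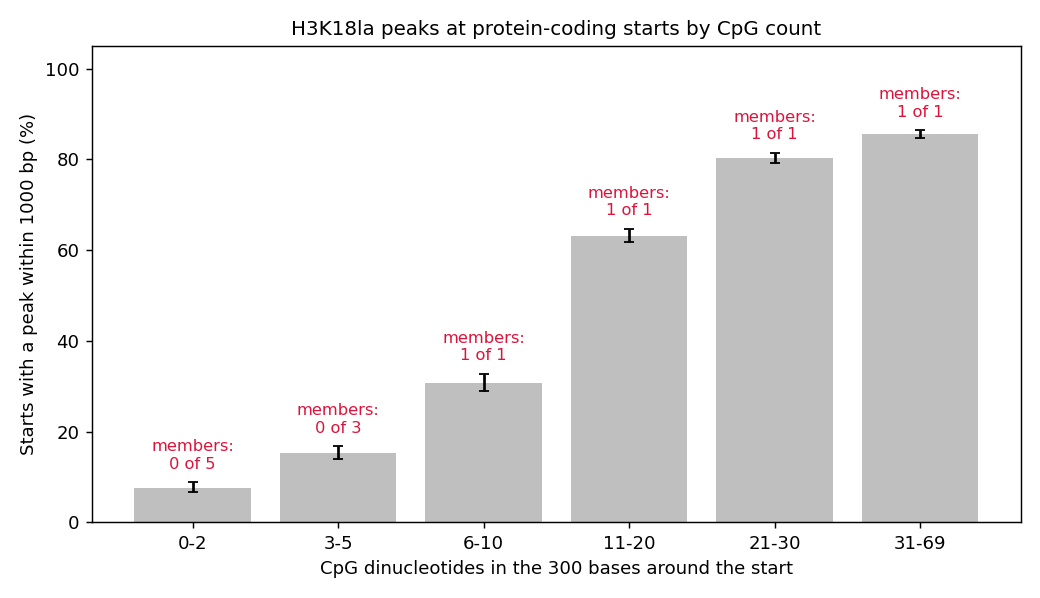
Share of protein-coding starts with a peak within 1000 bp, in percent, by the number of CpG dinucleotides in the 300 bases around the start, with exact 95% binomial intervals as error bars and the count of member starts in red above each bar. The share went from 7.63% in the poorest class to 85.5% in the richest, and the 8 member starts in the 2 poorest classes had no peak.

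NKX2-1 (NCBI gene 7080, chromosome 14, 36516397 to 36520232, minus strand) carried 1 peak, of 3.90-fold over 1149 bp (36519080 to 36520228) with a -log10 q of 4.01. Fold is the deposited enrichment of the peak over the caller's local background, and q is the caller's adjusted p-value. The whole peak lay inside the gene at its 5′ end. It covered all 300 bases of the inner start window printed above and 46 bases of the outer one, whose start lay 4 bp beyond the peak. The noncoding gene SFTA3 and the antisense gene NKX2-1-AS1 also had an end at this peak, so the peak cannot be given to NKX2-1 alone. At 3.90-fold the peak was below the median of the list (4.36), and 38.0% of peaks had a lower fold.

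The NKX2-1 peak stood by itself. The next listed peak lay 637130 bp below the gene (3.20-fold) and the next on the other side 476669 bp above it (4.23-fold). The gene and its 50000 bp flanks were covered by peaks over 1.11% of their length, and the median over all protein-coding genes was 2.26% (quartiles 0.678 and 5.07). No protein-coding neighbour lay within 50000 bp.

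NAPSA (NCBI gene 9476, chromosome 19, 50358477 to 50369302, minus strand) encodes napsin A, the aspartic protease that helps to mature pro-surfactant protein B. It was the one member with a peak at each end. The peak at the 5′ end (50368818 to 50369488, 671 bp) had 4.87-fold and a -log10 q of 6.41, and held the start itself and 236 bases of the window printed above. At the 3′ end, a peak of 4.13-fold (50357319 to 50358315, -log10 q 4.98) lay 162 bp outside the gene. No other gene had an end at either peak, although both lay inside the long noncoding gene LOC105372437. The neighbours above it had stronger peaks. That of NR1H2, which encodes the oxysterol receptor LXR beta, had 6.71-fold at 6825 bp from NAPSA, and that at POLD1, the catalytic subunit gene of DNA polymerase delta, had 5.48-fold at 14959 bp and also lay at NR1H2. The inner start of NAPSA lay 3179 bp from the nearest peak.

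AQP5 (NCBI gene 362, chromosome 12, 49961872 to 49965682, plus strand) encodes the apical water channel of alveolar type 1 and gland cells. Its start window was the richest in CpG among the members, with more CpG than 98.0% of starts of protein-coding genes. No base of the window lay in a peak. The peak assigned to it (49962422 to 49962994, 573 bp) lay inside the gene from 550 bp past the start, with 3.35-fold and a -log10 q of 4.01, and also lay at the end of the antisense gene AQP5-AS1. A stronger peak, of 4.82-fold (49959536 to 49960647, -log10 q 9.68), lay 1225 bp before the gene, within 1000 bp of the end of AQP2, which encodes the vasopressin-regulated water channel of the kidney. A further peak of 4.32-fold lay 1249 bp beyond the other end, at no coding gene's end. So AQP5 lay between 2 peaks that both exceeded its own. Whether its own peak, which lies in the gene body, counted as one at an end turned on the width of the window.

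SFTPC (NCBI gene 6440, chromosome 8, 22157383 to 22164479) encodes surfactant protein C, a hydrophobic product of alveolar type 2 cells. Its only peak within 1000 bp of an end had 10.2-fold over 1842 bp (22164494 to 22166335, -log10 q 30.3), the highest fold near any member, and 97.3% of peaks were lower. That peak began 15 bp outside SFTPC and held none of it. It overlapped BMP1 (22165372 to 22212326), the gene of the procollagen C-proteinase, and covered that gene's end. Of the 9 peaks within 50000 bp of SFTPC, 7 overlapped BMP1, from 10.2-fold at its end of lower coordinate to 3.36-fold inside it, and the other two were at REEP4 (8.45-fold) and NUDT18 (9.19-fold). SFTPC itself lay in a stretch of 22156 bp without a peak, and no peak overlapped its body. Peaks covered 13.1% of the gene and its flanks, more than for 96.2% of protein-coding genes.

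**Figure D3:**
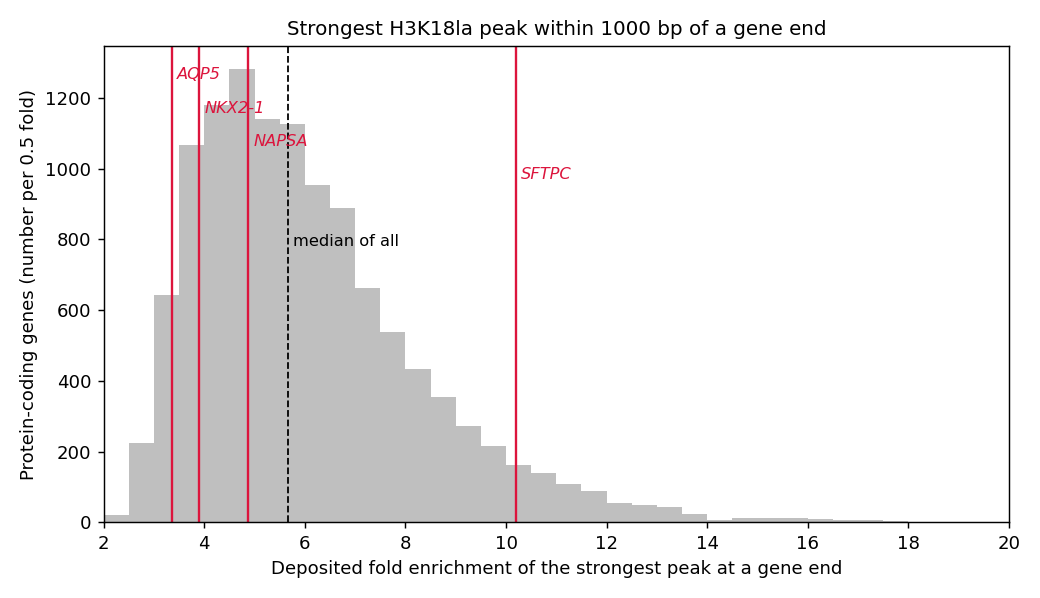
Histogram of the deposited fold enrichment of the strongest peak within 1000 bp of an end, over the 11744 protein-coding genes that have one (genes per 0.5 fold, axis shown to 20), with the 4 members as red lines and the median of all as a dashed line. AQP5, NKX2-1 and NAPSA lie below the median of 5.66, and SFTPC, whose peak lies at BMP1, lies at 10.2.

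Among all protein-coding genes with a peak at an end, the strongest peak had a median of 5.66-fold (quartiles 4.42 and 7.19) and 1420 bp. NAPSA, NKX2-1 and AQP5 were below this in fold and in width, and NKX2-1 and AQP5 were also below the lower quartile of fold. The median of the 4 members was 4.38-fold and 910 bp.

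AGER and SFTPB lay near peaks of their neighbours without one at their own ends. AGER (NCBI gene 177, chromosome 6, 32180969 to 32184253, minus strand) encodes the receptor for advanced glycation end products, abundant on alveolar type 1 cells. It occupied a gap of 9859 bp between a peak of 6.18-fold, 1784 bp away, at the ends of AGPAT1 and RNF5, and a peak of 8.68-fold, 4792 bp away, at PBX2 and GPSM3. Another peak, of 6.90-fold, lay at GPSM3 and NOTCH4, and those farther off had 5.36-fold at PRRT1 and PPT2 and 4.94-fold at FKBPL. Peaks covered 12.5% of AGER and its flanks, more than for 95.5% of protein-coding genes, the second highest share among the members after SFTPC. Of the 8 coding neighbours of AGER, 7 had a peak at an end. SFTPB (NCBI gene 6439, chromosome 2, 85657307 to 85668741, minus strand) encodes the small hydrophobic protein without which surfactant does not spread. The peaks nearest to it lay 40135 bp below, inside the splicing factor gene USP39 (4.93-fold), and 44764 bp below, at C2orf68 (5.60-fold). Each of these peaks lay within 1000 bp of a start of USP39. On the side of its starts the next peak was 68543 bp away.

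SCGB1A1 (NCBI gene 7356, chromosome 11, 62419033 to 62423195) encodes the secretoglobin of club cells. A weak peak of 3.68-fold (62426866 to 62427466, -log10 q 3.44) lay 3671 bp above it, at an end of the noncoding gene LOC102723765, and the next, of 6.77-fold, lay 48259 bp away inside AHNAK. On the other side, 81109 bp separated the gene from the nearest peak, at ASRGL1 (4.02-fold).

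The 3 collectin genes of surfactant, SFTPA1 (NCBI gene 653509, chromosome 10, 79610939 to 79615455), SFTPA2 (NCBI gene 729238, 79555852 to 79560407) and SFTPD (NCBI gene 6441, 79937740 to 79982383), shared 1 stretch without a peak. Collectins are lectins that bind microbes in the air space. The stretch ran from 79445654 to 80078595 (633 kb) and held 6 protein-coding genes, the 3 members included. Of all protein-coding genes, 9.26% lay in a peak-free stretch at least as long. The peaks at its borders had 2.79-fold and 5.31-fold. The start windows of SFTPA1 and SFTPA2 printed above matched in 262 of 304 aligned positions (86.2%), with 34 mismatches, 8 gapped positions and a longest identical run of 49 bases. How reads that match both copies were placed is not given in the sources used here, and its part in the absence of a peak was not tested.

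2 short motifs were sought in the start windows on both strands. CTCAAG, the core of the site that NKX2-1 binds, was found in 4 of the 12 member windows and in 11.3% of all 22175. It stood at position -170 of SFTPA1 and -172 of SFTPA2, counted from the start, at -196 of NAPSA and at 24 of the inner NKX2-1 window. The NAPSA match is on the other strand and reads CTTGAG in the window as printed. The NAPSA and inner NKX2-1 windows overlapped a peak, and those of SFTPA1 and SFTPA2 did not. The 12 windows come from 8 genes, and SFTPA1 and SFTPA2 are duplicates, so the 4 matches are not independent. Whether the share of members differs from that of all windows was not tested. TATAAA, 1 form of the TATA box, was found at -28 of SFTPA1 and -30 of SFTPA2. Counted anywhere in the window and on either strand, it was found in 9.47% of all windows. Other forms of the TATA box were not sought. Neither motif overlaps the other, and a match is a stretch of letters, not a bound site.

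The genes next to the members were counted in the same way. Of 28 protein-coding genes within 50000 bp of a member, 18 were marked at an end (64.3%, 44.1 to 81.4), an interval that holds the 59.1% of all protein-coding genes. Their strongest peaks had a median of 6.18-fold. Neighbours that shared a peak were each counted, as with PRRT1 and PPT2 (5.36-fold), AGPAT1 and RNF5 (6.18-fold) and PBX2 and GPSM3 (8.68-fold). Of the 18 marked genes, 7 were neighbours of AGER. These genes are therefore not independent, and the interval and the median take no account of this. Of the 27 distinct peaks within 50000 bp of a member, 5 lay at a member's end, 12 at the end of another coding gene and at no member's, and 10 at no coding gene's end.

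The wider lists of lung genes are given by the same count. Each count is to be read against the 59.1% of all protein-coding genes with a peak at an end, whose strongest peaks had a median of 5.66-fold. Besides the members, and without the NKX2-1 partner list, 27 of 55 lung genes had one (49.1%, 35.4 to 62.9, an interval that holds that share), with a median of 5.38-fold. Of the alveolar type 2 and surfactant genes, 6 of 14 had a peak (42.9%, 17.7 to 71.1). ETV5, an ETS factor gene, had 7.98-fold, ABCA3, the lipid transporter gene of lamellar bodies, 7.02-fold, and LPCAT1, which makes surfactant phosphatidylcholine, 5.38-fold. CTSH, PGC and SFTA2 had none. Of the alveolar type 1 genes, 7 of 11 had a peak (63.6%, 30.8 to 89.1). The caveolin genes CAV1 (9.03-fold over 5308 bp) and CAV2 (8.79-fold) led, and PDPN, HOPX and CLIC5 had no peak within 50000 bp.

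Airway genes were counted by cell type. Of the club and secretory genes, 1 of 10 had a peak (10.0%, 0.253 to 44.5), MUC1 with 10.0-fold in a peak also at THBS3, and none lay at the ends of SCGB3A1, SCGB3A2, BPIFA1, BPIFB1 and MUC5AC. The interval of this list lies below the 59.1% of all protein-coding genes. Of the basal cell genes, 1 of 6 had a peak (16.7%, 0.421 to 64.1), KRT15, whose peak of 7.58-fold also lay at KRT19 and overlapped none of KRT15. Of the ciliated cell genes, 7 of 9 had one (77.8%, 40.0 to 97.2), the highest being RFX3 at 8.94-fold and MCIDAS at 7.37-fold. The median of the 7 was 3.84-fold, below the 5.66-fold of all protein-coding genes with a peak at an end. The peaks at FOXJ1 (3.84-fold), TPPP3 (3.29-fold) and DNAI1 (3.99-fold) were shared with RNF157, ZDHHC1 and FAM219A and overlapped none of these 3 ciliated genes.

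Among the transcription factors of the lung lineage, NKX2-1 included, 9 of 15 had a peak (60.0%, 32.3 to 83.7). FOXP2 had 7.17-fold, ID2 6.29-fold, GATA6 6.21-fold and FOXA1 5.10-fold in a peak also at TTC6, all above NKX2-1, while CEBPA (3.26-fold) was below it. The peak counted for ID2 overlapped none of that gene. FOXA2, FOXP1, GRHL2 and KLF5 had none at an end. Of 11 factors set beside NKX2-1 as partners in lung gene control, of which 3 are also in that list, 8 had a peak (72.7%, 39.0 to 94.0). TEAD1 had 15.9-fold, YAP1 10.1-fold and CREB1 9.18-fold.

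Genes of other lineages were set beside these. Of the neuroendocrine genes, 4 of 12 had a peak (33.3%, 9.92 to 65.1), the highest being UCHL1 at 5.79-fold, and CALCA and CHGA had none. Of 18 genes of liver, pancreas, kidney, muscle, brain, blood and thyroid, 1 had a peak (5.56%, 0.141 to 27.3), MBP with 11.8-fold. That interval, like the one of the secretory genes, lies below the 59.1% of all protein-coding genes. The interval of the 10 lung members overlapped that of each of these lists, but with 10 genes it is too wide to tell whether the shares differ. The start richest in CpG of each gene held a median of 9 CpG among the type 2 genes, 30 among the type 1 genes, 8 among the secretory genes, 27 among the ciliated genes, 7 among the basal genes, 23 among the lung factors, 39 among the NKX2-1 partners, 24.5 among the neuroendocrine genes and 4 among the genes of other tissues, over the 5 to 12 genes of each list, and 2 basal genes, that have a start in the table. The part of CpG content in these shares was not tested.

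**Figure D4:**
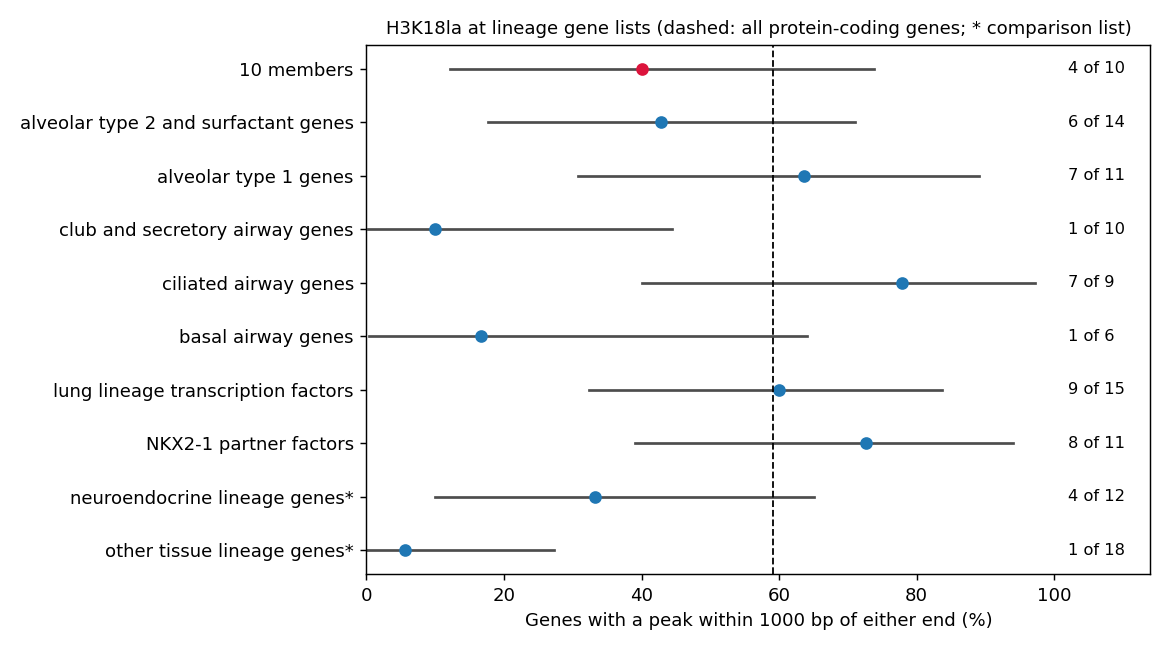
Share of genes with a peak within 1000 bp of either end, in percent, for the 10 members (red) and each gene list (blue), with exact 95% binomial intervals as lines, the counts at the right and the 59.1% of all protein-coding genes as a dashed line. The members lie at 40.0%, and the lists run from 5.56% for other tissues to 77.8% for ciliated genes.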

How the data were processed

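Per the submitters' processing notes, reads were prepared with bcl2fastq 2.17, cutadapt 1.18 and Trimmomatic 0.38 and aligned to hg38 with Bowtie2 2.3.4.1. The notes also name Picard, MACS2 (2.1.2 and 2.1.0) and ChIPseeker. The caller's settings, its threshold and the placing of reads that match several sites are not given in the sources used here. The deposited file is a list of 28695 broad peaks without a header. Its deposited fold enrichment is a ratio to the caller's local background, its deposited significance is given as -log10 p and -log10 q, and the deposited score is 10 times the -log10 q cut to a whole number (true of 99.98% of peaks). Fold is an average over a peak's length. The lowest -log10 q was 1.33. Depth is unknown.

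Peaks were compared with 19866 protein-coding genes of the RefSeq table for GRCh38.p14, after 718 of 59679 placed entries on alternate or unlocalised sequences were left out. That table has no exons, so exonic, intronic and untranslated positions were not assigned. Strand and starts came from the RefSeq promoter table, which matched 8 of the 10 members. A peak counted where it overlapped by 1 bp or more a window of 1000 bp either side of a gene end. The members and lists were chosen with earlier results of these data known. All members, the genes sharing their peaks, the nearest coding genes, and up to 4 marked and 4 unmarked genes of each list could be named. CEBPA, SCGB3A1, SCGB3A2, TPPP3 and the genes of the closing observations fall outside that rule and were named after their values were seen. Intervals are exact Clopper-Pearson at 95%. Scripts used Python 3.11.15, pandas 2.3.3, scipy 1.17.1 and Biopython 1.88, and the overlap code was tested on simulated data. Alternatives varied the window, the overlap rule and the peak threshold.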

Additional observations from a re-analysis of the deposited data

How the results depend on the processing

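The count at the members' ends (4 of 10) was 3 with a window of 500 bp (57.7% of all protein-coding genes), 5 with 3000 bp (62.4%), 4 under the midpoint rule (54.8%), 4 with 50% of the peak in the window (53.9%) and 3 of the 8 with a known start at the 5′ end alone (62.1%). It was 2 with a -log10 q of at least 5 and 2 among peaks above the median fold, SFTPC and NAPSA in both cases, against 52.4% and 45.0% of all protein-coding genes. The next alternatives were chosen after seeing the data. Counting peaks at no other coding gene's end left 3 (41.0% of all protein-coding genes), without SFTPC. Counting those at no other gene's end of any kind left 1, NAPSA. The share of all protein-coding genes under this last rule was not computed, so that count says nothing particular about the members. The count within 50000 bp (7) was 6 within 25000 bp (77.8% of all protein-coding genes), 8 within 100000 bp (88.9%), 6 with a -log10 q of at least 5 (77.2%), 6 above the median fold (72.6%) and 7 under the midpoint rule (83.1%). The strongest AQP5 peak was 4.82-fold with the 3000 bp window and was lost at 500 bp and at a -log10 q of at least 5, where NKX2-1 was lost too. No paired analysis was possible because each group holds 1 library and the result comes from no test. The unknown depth limits every statement that a gene has no peak.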

Other observations

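Several genes of the wider lists had no peak at an end and several inside. WWTR1, which encodes the coactivator TAZ, held 5 peaks of up to 8.12-fold in its body, NFIB held 5 of up to 11.2-fold, and TP63, the basal cell factor gene, held 3 of up to 5.46-fold. By contrast FOXP1, TBX5 and FOXA2 had no peak in the gene or within 50000 bp of it. These genes were singled out after their values were seen.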
